A study of Mus musculus with 12 samples.

Results

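Lag3, Tigit, Ctla4, Cd274, Pdcd1lg2, Cd200, Il10, Ebi3 and Il10ra encode inhibitory receptors, their ligands and regulatory cytokines, and were followed in cultured mouse B cells on the way to plasmablasts. These 9 genes were taken by their symbols from the 24325 listed for each library. All 9 are listed, and 8 of them were among the 11069 genes tested. Pdcd1lg2 reached at most 0.741 FPKM (a fragment count scaled to transcript length and library size) and was not tested. Lag3 and Tigit were chosen by their FPKM differences between later populations and activated B cells, which were among the largest in these same libraries, so the comparisons that showed this are described without a test. They are wt pre-plasmablasts, wt plasmablasts and ko plasmablasts, each against activated B cells of the same genotype.

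The study asked what Mzb1, a co-chaperone of the endoplasmic reticulum, does downstream of the transcription factor Blimp1 in plasma cell differentiation. Splenic B cells of C57BL/6 mice were purified with beads against B220 and kept for 4 days in medium with lipopolysaccharide (LPS) at 25 µg/ml. They were either Mzb1-/- (ko) or Mzb1+/+ (wt), and all carried Prdm1+/gfp, so that 1 copy of the Blimp1 gene Prdm1 bears a GFP reporter in both genotypes. Activated B cells (ActB) were CD138- and GFP-, pre-plasmablasts (PrePB) were CD138- and GFP+, and plasmablasts (PB) were CD138+ and GFP+. The 6 groups of population and genotype hold 2 libraries each, 12 in all. The labels do not say that libraries of a group came from separate animals, so p-values measure the spread between these libraries only. The age and sex of the mice and the cell type in which Mzb1 was deleted are not given in the sources used here.

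LAG3, TIGIT and CTLA-4 are inhibitory receptors known mainly from T cells and natural killer (NK) cells. LAG3 binds MHC class II, TIGIT binds the nectin-like protein PVR, and CTLA-4 competes with CD28 for CD80 and CD86. PD-L1 (Cd274) and PD-L2 (Pdcd1lg2) are ligands of the receptor PD-1, and CD200 is a surface ligand of the inhibitory receptor CD200R1. B cells and plasma cells can also restrain immune responses by secreting IL-10, which signals through IL-10RA with IL-10RB, and IL-35, a pair of EBI3 with the p35 chain encoded by Il12a. LAG3 has been described in mice as a surface marker of a subset of plasma cells that produce IL-10.

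Promoter sequences of 6 of the 9 genes were found in RefSeq (build GRCm38.p6), namely Tigit, Ctla4, Ebi3, Cd274, Pdcd1lg2 and Cd200. The files themselves were made on another build and hold no coordinates. The promoters of Tigit (chr16:43664135-43664434, minus strand), Ctla4 (chr1:60908775-60909074, plus strand) and Ebi3 (chr17:55952373-55952672, plus strand) are shown for 2 receptor genes and a cytokine subunit gene whose courses over the populations differed. Each runs 5′ to 3′ from 250 bases before the annotated start, and capitals mark the 50 bases from the start on.
Tigit: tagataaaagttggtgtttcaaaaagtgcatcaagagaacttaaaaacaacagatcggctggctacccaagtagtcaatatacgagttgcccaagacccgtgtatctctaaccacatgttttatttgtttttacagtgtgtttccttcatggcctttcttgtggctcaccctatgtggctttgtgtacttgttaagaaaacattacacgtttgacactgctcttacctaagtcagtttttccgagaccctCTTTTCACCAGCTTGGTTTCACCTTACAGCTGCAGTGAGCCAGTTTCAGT
Ctla4: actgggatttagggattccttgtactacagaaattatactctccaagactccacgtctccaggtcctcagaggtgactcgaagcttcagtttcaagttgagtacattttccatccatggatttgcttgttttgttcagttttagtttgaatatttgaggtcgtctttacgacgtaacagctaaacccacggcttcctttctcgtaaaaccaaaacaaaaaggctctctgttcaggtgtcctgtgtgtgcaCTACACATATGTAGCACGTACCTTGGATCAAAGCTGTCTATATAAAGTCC
Ebi3: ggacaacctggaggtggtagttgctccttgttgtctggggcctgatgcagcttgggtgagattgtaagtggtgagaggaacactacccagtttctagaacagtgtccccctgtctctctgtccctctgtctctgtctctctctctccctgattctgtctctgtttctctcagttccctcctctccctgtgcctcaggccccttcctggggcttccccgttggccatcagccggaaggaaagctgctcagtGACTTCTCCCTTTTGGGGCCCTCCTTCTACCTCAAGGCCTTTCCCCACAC
Neither these windows nor those of Cd274, Pdcd1lg2 and Cd200 held any of 3 motifs searched on both strands. The motif AGNGAAAG, the core read by Blimp1, is in 8.63% of all 32851 promoter windows of that length. The AP-1 motif TGANTCA is in 7.81% and the STAT motif TTCNNNGAA in 8.30% of them. Matches were counted whether or not they overlap, and a window without these letters says nothing about binding of the factors.

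The libraries held 418966 to 581262 FPKM in total and 10180 to 10466 genes at 1 FPKM or more, and their sequencing depth is unknown. Mzb1 measured 273 and 289 FPKM in ko ActB, against 845 and 1016 in wt ActB. It measured 899 and 871 FPKM in ko PrePB against 10066 and 9926 in wt PrePB, and 1008 and 926 in ko PB against 15434 and 17359 in wt PB. The sort genes followed the labels: Sdc1, which encodes CD138, was at 66.5 FPKM or more in every PB library and at 5.24 or less in the others, and Prdm1 was at 218 or more in PrePB and PB and at 25.4 or less in ActB. Genes below 0.5 FPKM stood in shared ratios between libraries within each of 2 sets, pattern A (all wt libraries and replicate 1 of ko ActB and of ko PrePB) and pattern B (the other 4 ko libraries). Shares of such genes were 9.60% to 21.7% within A, 8.14% to 17.5% within B and 2.25% to 5.16% across. In PB the pattern and the genotype cannot be told apart. Replicate 1 of each wt population also stood apart by Xist, at 81.4, 35.3 and 33.3 FPKM in ActB, PrePB and PB, against at most 0.389 in the other 9 libraries. The Y chromosome gene Ddx3y went the other way, at 0.0193, 0.0479 and 0 FPKM in these wt libraries, against 15.7 to 22.0 in the other 9. By these genes wt replicate 1 read as female and the other libraries, every ko library among them, as male. Each comparison of ko with wt thus sets male ko libraries against wt libraries of both sexes. The part of this difference in the results was not tested beyond leaving wt replicate 1 out.

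Lag3, Tigit and Ctla4 had low levels in ActB and levels above 100 FPKM in PB, and Il10 shared this direction with a smaller difference. Il10ra ran the opposite way, Ebi3 was at its highest in PB, Cd274 stayed within a narrower range, and Cd200 differed more between libraries of a population than between populations. Between wt PrePB and wt ActB, 5 of the 8 genes were at least 2-fold apart on the FPKM + 1 scale with libraries that did not overlap, against 16.3% of all genes tested. In wt PB against wt ActB the count was 6 of 8, against 22.3% of all genes, and in ko PB against ko ActB also 6 of 8, against 21.9%. These counts describe the choice of the genes, and nothing further is read from them. The comparisons with ActB share the ActB libraries of their genotype, so their values stand side by side and are not independent.

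**Figure D1:**
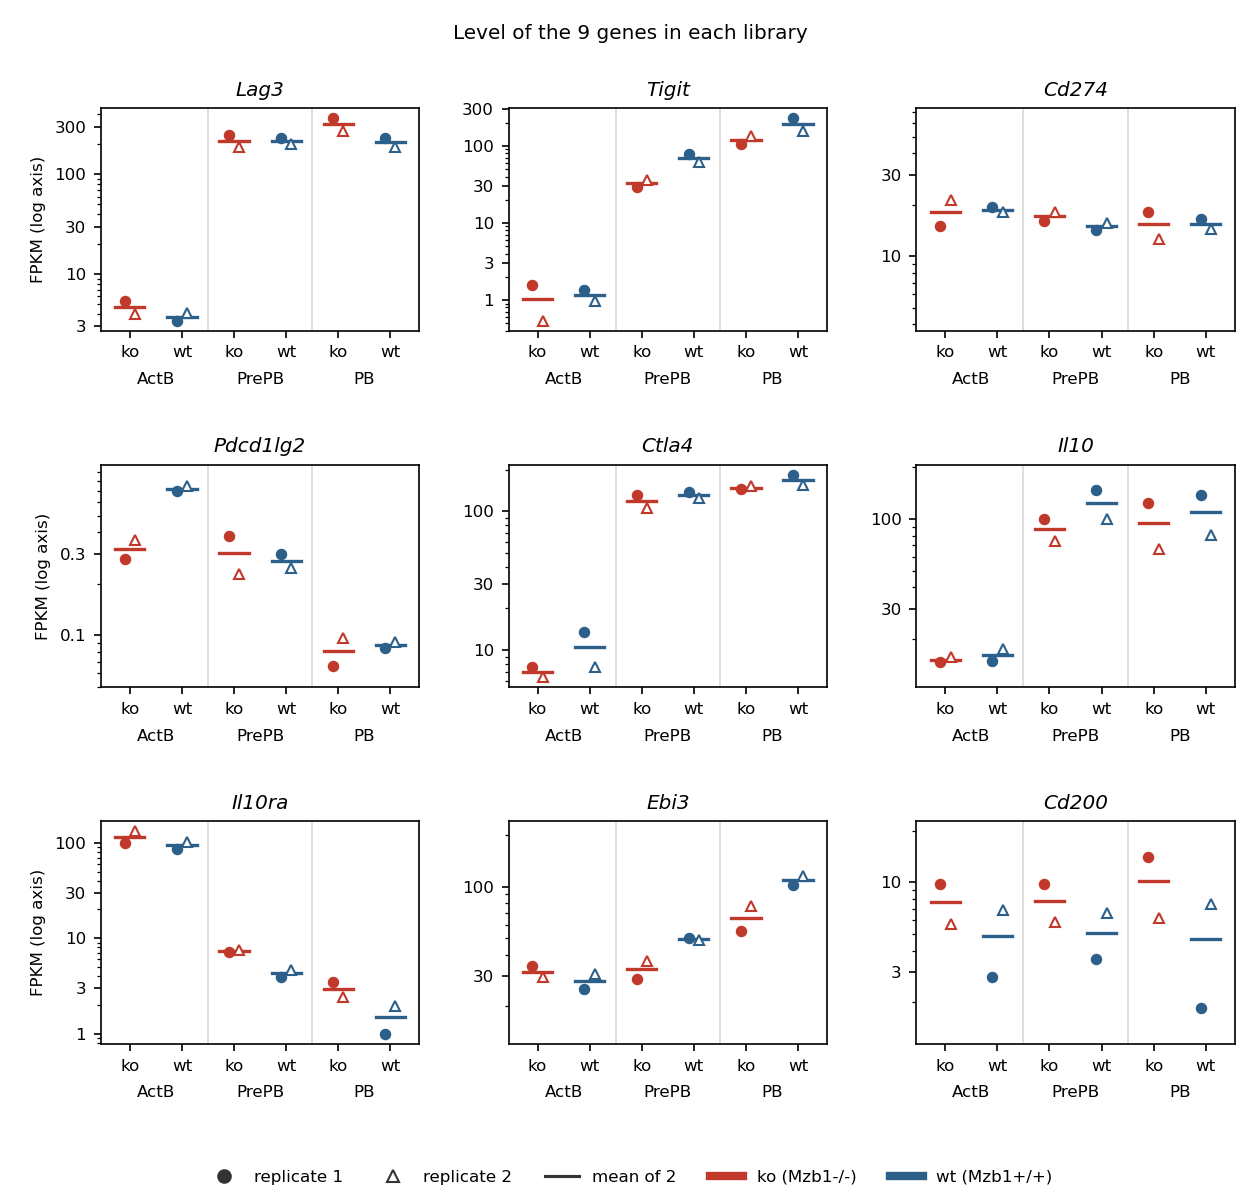
Level of the 9 genes in each library, in FPKM on log axes of differing range, by population and genotype (ko left of wt). Circles are replicate 1, triangles replicate 2 and bars the mean of 2. Lag3, Tigit, Ctla4 and Il10 are lowest in ActB and Il10ra is highest there, Tigit and Ebi3 are lower in ko than in wt in PrePB and PB, and no Pdcd1lg2 value exceeds 0.741.

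Among the receptors, Lag3 was low in ActB and high in both later populations. It measured 5.39 and 4.02 FPKM in ko ActB, against 3.41 and 4.05 in wt ActB. In PrePB the values were 251 and 186 FPKM in ko and 232 and 203 in wt, and in PB 366 and 270 in ko and 233 and 189 in wt. Every PrePB and PB library was thus above every ActB library, the genotypes overlapped in ActB and PrePB, and in PB both ko libraries were above both wt libraries. On the log2(FPKM + 1) scale, wt PrePB were higher than wt ActB by 5.53 (46.2-fold), wt PB by 5.48 (44.6-fold), and ko PB were higher than ko ActB by 5.80 (55.7-fold). Ordered by mean level, ko PB came highest, followed by ko PrePB, wt PrePB and wt PB, which overlapped each other, and by the ActB groups, which also overlapped.

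Tigit was at about 1 FPKM in ActB and higher in PB than in PrePB. It measured 1.55 and 0.539 FPKM in ko ActB, against 1.34 and 0.964 in wt ActB. The PrePB levels were 29.3 and 36.1 FPKM in ko and 78.3 and 62.6 in wt, and the PB levels 104 and 132 in ko and 229 and 156 in wt. The wt and ko libraries overlapped in ActB only, and the order by mean level (wt PB, ko PB, wt PrePB, ko PrePB, then ActB) had no overlap between any neighbours above ActB. Against ActB of the same genotype, Tigit was higher by 5.05 on the log2 scale (33.1-fold) in wt PrePB, by 6.47 (88.7-fold) in wt PB and by 5.90 (59.8-fold) in ko PB.

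Ctla4 measured 7.54 and 6.39 FPKM in ko ActB, against 13.6 and 7.62 in wt ActB. In PrePB it stood at 131 and 107 FPKM in ko and 137 and 125 in wt, and in PB at 145 and 152 in ko and 184 and 155 in wt. PrePB and PB lay close together and far above ActB, and the genotypes overlapped in PrePB alone. The log2 difference from ActB was 3.55 (11.8-fold) in wt PrePB, 3.92 (15.1-fold) in wt PB and 4.23 (18.8-fold) in ko PB. At these levels, which are scaled to transcript length, the 3 receptors ranged from 104 to 366 FPKM in PB libraries.

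The ligands behaved otherwise. Cd274 measured 15.0 and 21.4 FPKM in ko ActB and 19.4 and 18.0 in wt ActB, 16.1 and 18.1 in ko PrePB and 14.3 and 15.5 in wt PrePB, and 18.2 and 12.6 in ko PB and 16.4 and 14.4 in wt PB. All neighbours in its order of levels overlapped, but not all pairs of groups did. The wt PrePB and wt PB libraries lay below those of wt ActB (log2 differences of -0.31 and -0.27), and ko PrePB lay above wt PrePB. The ko populations overlapped each other. Its paralog and neighbour on chromosome 19, Pdcd1lg2, was at 0.277 and 0.359 FPKM in ko ActB, against 0.692 and 0.741 in wt ActB. In PrePB and PB it stayed between 0.0666 and 0.380 FPKM, too low for a test.

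Cd200 varied more between libraries than between populations. It measured 9.75 and 5.71 FPKM in ko ActB against 2.79 and 6.88 in wt ActB, 9.75 and 5.91 in ko PrePB against 3.56 and 6.59 in wt PrePB, and 14.1 and 6.24 in ko PB against 1.84 and 7.51 in wt PB. The order of libraries was the same in all 3 populations: ko replicate 1 highest, then wt replicate 2, ko replicate 2 and wt replicate 1. The highest was 3.50 times the lowest in ActB, 2.74 times in PrePB and 7.68 times in PB. The lowest library was each time the wt replicate with Xist, and the part of that difference between libraries in the values was not tested.

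Among the cytokines and their receptors, Il10 measured 14.5 and 15.6 FPKM in ko ActB, against 14.7 and 17.3 in wt ActB. It stood at 100.4 and 74.8 FPKM in ko PrePB against 148 and 99.95 in wt PrePB, and at 124 and 66.6 in ko PB against 138 and 80.9 in wt PB. All PrePB and PB libraries were above all ActB libraries, the genotypes overlapped in every population, and replicate 1 was above replicate 2 in each PrePB and PB group. The log2 difference from ActB was 2.85 (7.23-fold) in wt PrePB, 2.65 (6.28-fold) in wt PB and 2.52 (5.73-fold) in ko PB. These are bulk libraries, so fewer cells with a transcript and less of it per cell cannot be told apart.

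Il10ra, the ligand-binding chain of the IL-10 receptor, was highest where Il10 was lowest. It measured 100.3 and 132 FPKM in ko ActB, against 87.0 and 101 in wt ActB. The levels were 7.21 and 7.48 FPKM in ko PrePB against 3.87 and 4.68 in wt PrePB, and 3.48 and 2.42 in ko PB against 0.993 and 1.96 in wt PB. Each step down separated the libraries of both genotypes, and within PrePB and PB the ko libraries were above the wt libraries. On the FPKM + 1 scale Il10ra was 18.0-fold lower in wt PrePB than in wt ActB, 39.0-fold lower in wt PB and 29.7-fold lower in ko PB than in ko ActB. Il10rb, the chain shared with related receptors, averaged 52.2 FPKM in ko PB and 57.0 in wt PB, against 26.1 in ko ActB and 30.3 in wt ActB.

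Ebi3 followed a course of its own. It measured 34.2 and 29.5 FPKM in ko ActB, against 25.2 and 30.7 in wt ActB. The levels were 29.0 and 36.9 FPKM in ko PrePB against 50.1 and 48.6 in wt PrePB, and 55.0 and 76.6 in ko PB against 102 and 115 in wt PB. In wt libraries the populations did not overlap at either step, whereas ko PrePB overlapped ko ActB. Against ActB, Ebi3 was higher by 0.80 on the log2 scale (1.75-fold) in wt PrePB, by 1.93 (3.80-fold) in wt PB and by 1.01 (2.01-fold) in ko PB, where it lies at the edge of the 2-fold limit.

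The step from ActB to PrePB was tested in ko cells. This comparison was not itself used to choose Lag3 and Tigit, but it shares the ko ActB libraries with a described comparison. Their low values there were part of the choice, so the p-values of Lag3 and Tigit at this step are no independent support. The tests below on PB and wt PrePB libraries also share libraries with described comparisons. The same limit holds there for Lag3, for Tigit and for counts that include them. The other members were also chosen with earlier results of these data known. Of the 8 genes, 4 rose and 1 fell in ko PrePB by limma with Benjamini-Hochberg adjustment at a threshold of 0.05, where 54.2% of all genes changed, 27.1% upward and 27% downward. Lag3 rose by 5.26 on the log2 scale (standard error 0.19, adjusted p = 1.09e-08), Tigit by 4.08 (0.25, 2.75e-07), Ctla4 by 3.91 (0.20, 9.72e-08) and Il10 by 2.45 (0.31, 6.45e-05). Il10ra fell by 3.80 (0.20, 1.09e-07). Ebi3 had a log2 change of 0.04 (adjusted p = 0.852, 95% interval -0.32 to 0.41), Cd274 one of -0.07 and Cd200 one of 0.02, and none of these passed. The median log2 change was 1.25 over the 8 genes and -0.016 over all genes tested. The 8 include Lag3 and Tigit, chosen by values in libraries used here, so nothing further is read from the counts or the medians.

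Between PB and PrePB, Tigit and Ebi3 rose and Il10ra fell in PB of each genotype. These are 3 of 8 genes in wt cells, where limma called 8.73% of all genes (Benjamini-Hochberg), and 3 of 8 in ko cells, where it called 10.8%. By direction, 2 rose and 1 fell in each genotype, where 5.02% of all genes rose and 3.7% fell in wt cells and 6.57% rose and 4.24% fell in ko cells. Tigit rose by 1.82 on the log2 scale in ko PB (3.53-fold, standard error 0.25, adjusted p = 0.00176) and by 1.42 in wt PB (2.68-fold, adjusted p = 0.00738). Ebi3 rose by 0.97 in ko PB (1.96-fold, standard error 0.17, adjusted p = 0.00531) and by 1.12 in wt PB (2.18-fold, adjusted p = 0.00339). Il10ra fell by 1.09 in ko PB (2.13-fold lower, standard error 0.20, adjusted p = 0.00793) and by 1.12 in wt PB (2.17-fold lower, adjusted p = 0.00856).

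The other genes did not pass in PB against PrePB. Lag3 had the largest value among them in ko cells, a log2 change of 0.54 (95% interval 0.12 to 0.96, adjusted p = 0.0963), against -0.05 in wt cells (-0.47 to 0.37). In ko cells limma called Lag3 with the replicate number as a block (0.54, adjusted p = 0.0108) and when the fragment pattern entered the fit (0.73, adjusted p = 0.0287). Ctla4 had log2 changes of 0.33 in ko and 0.36 in wt cells, and its PB libraries were above its PrePB libraries in both. The changes of Il10 were 0.07 and -0.20 in ko and wt cells, those of Cd274 -0.16 and 0.04, and those of Cd200 0.28 and -0.26. With wt replicate 1 left out of all 3 populations, no member was called in wt cells, while the log2 changes were 1.31 for Tigit (adjusted p = 0.143), -0.94 for Il10ra (0.142) and 1.23 for Ebi3 (0.0972). Leaving out wt PrePB replicate 2 (Tigit 1.26, adjusted p = 0.0605, and Il10ra -1.005, 0.0678) or wt PB replicate 1 (1.15 and -0.83, 0.0556 for each) left Ebi3 as the only member called in wt cells. In ko cells the call of Il10ra was lost without ko PB replicate 2 (-0.90, adjusted p = 0.0783) and that of Ebi3 without ko PrePB replicate 1 (0.80, 0.0538).

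**Figure D2:**
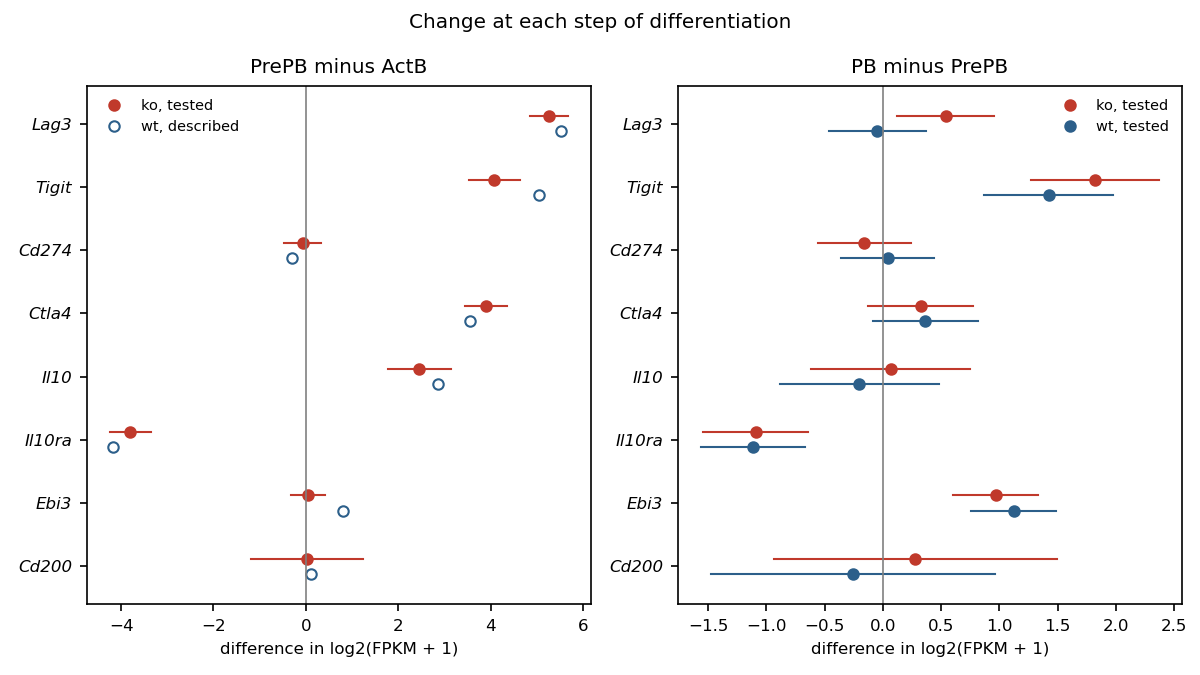
Difference in log2(FPKM + 1) of each tested gene for PrePB minus ActB (left) and PB minus PrePB (right), in ko and wt cells. Filled points with bars are tested comparisons with 95% intervals from limma, and open points are the described wt comparison without intervals. Lag3, Ctla4 and Il10 make nearly all of their change between ActB and PrePB, while Tigit and Il10ra change at both steps. Ebi3 rises between PrePB and PB, and in ko cells it had not passed the test at the step before.

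For the loss of Mzb1, no member passed in any population. By limma with Benjamini-Hochberg adjustment 0 of 8 were called in ActB, where 0.0542% of all genes were called, 0 of 8 in PrePB (0.117%) and 0 of 8 in PB (0.407%). At an unadjusted p below 0.05 there was 1 gene in ActB (Ctla4), 3 in PrePB (Tigit, Ebi3 and Il10ra) and 4 in PB (Tigit, Ebi3, Il10ra and Lag3), against 8.07%, 15% and 16% of all genes. The ko and wt libraries did not overlap for 1 of the 8 genes in ActB, 4 in PrePB and 5 in PB, and the same held for 36%, 47.1% and 49.3% of all genes.

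Tigit had the lowest p in PrePB. Its log2 change in ko against wt PrePB was -1.08 (2.12-fold lower, 95% interval -1.63 to -0.53, adjusted p = 0.137 by limma), and no other member was 2-fold apart there without overlap, as 0.407% of all genes were. In PB the change was -0.68 (1.61-fold lower, -1.23 to -0.13, adjusted p = 0.222) and in ActB -0.11. Ebi3 came nearest to the threshold in PB, with a log2 change of -0.73 (1.66-fold lower, -1.10 to -0.37, adjusted p = 0.0860), after -0.58 in PrePB (adjusted p = 0.171) and 0.18 in ActB. The ko PB libraries carry fragment pattern B and the wt PB libraries pattern A, so genotype and pattern cannot be told apart from the PB values alone. A term for the pattern takes its size only from replicate 1 against replicate 2 of ko ActB and of ko PrePB. There pattern and replicate number cannot be told apart, so the term may not remove the pattern alone. A limma fit with this term gave log2 changes in ko PB of -0.47 for Tigit (adjusted p = 0.665) and -0.80 for Ebi3 (adjusted p = 0.344). In PrePB, where ko replicate 1 and both wt replicates carry pattern A, Tigit stood at 29.3 FPKM in that ko library, against 78.3 and 62.6 in the wt libraries. Ebi3 stood at 29.0 FPKM in that ko library, against 50.1 and 48.6 in the wt libraries. With the pattern term, the limma log2 changes in PrePB were -0.97 for Tigit (adjusted p = 0.222) and -0.61 for Ebi3 (adjusted p = 0.248). The values within pattern A rest on 1 ko library, and the cause of these differences was not tested.

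Il10ra and Lag3 had positive values in ko PB. The log2 change of Il10ra was 0.69 in PB (1.61-fold, 95% interval 0.24 to 1.14, adjusted p = 0.148 by limma), 0.67 in PrePB (adjusted p = 0.187) and 0.30 in ActB. Lag3 had 0.58 in PB (1.50-fold, 0.16 to 1.00, adjusted p = 0.179), -0.01 in PrePB (-0.42 to 0.41) and 0.26 in ActB. With the term for the pattern the PB values were 0.47 for Il10ra (adjusted p = 0.582) and 0.97 for Lag3 (adjusted p = 0.203). Ctla4 had -0.19 in PB, -0.15 in PrePB and -0.50 in ActB, where the interval was -0.95 to -0.05 (adjusted p = 0.584). The intervals of Il10 (-1.17 to 0.20 in PrePB, -0.90 to 0.46 in PB) and Cd274 (-0.21 to 0.58 in PrePB, -0.42 to 0.38 in PB) included 0. Cd200 had the widest, -0.13 to 2.31 around 1.09 in PB.

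**Figure D3:**
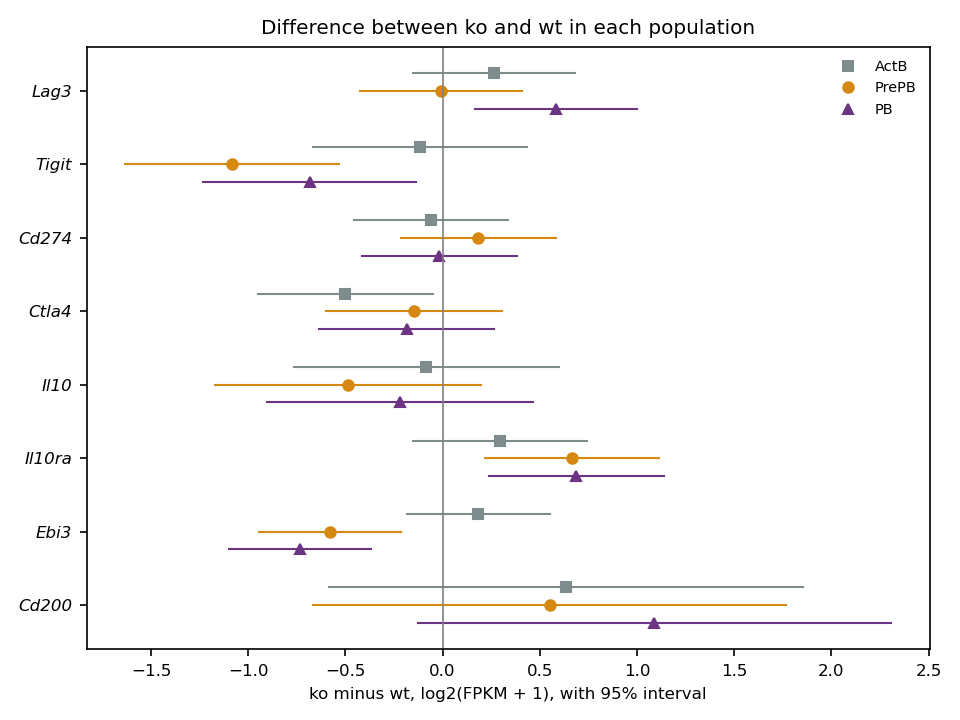
Log2 change of FPKM + 1 in ko against wt cells for each tested gene in ActB, PrePB and PB, with 95% intervals from limma. Tigit and Ebi3 lie below 0 and Il10ra above 0 in PrePB and PB, Lag3 lies above 0 in PB, and no adjusted p is below 0.05.

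Whether the effect of genotype differed between populations was tested as an interaction, and 0 of 8 genes passed in each. Of all genes, limma called 0.0361% for PrePB against ActB, 0.0452% for PB against ActB and 0% for PB against PrePB (Benjamini-Hochberg). At an unadjusted p below 0.05 there were 2 members for PrePB against ActB (3.57% of all genes), 1 for PB against ActB (4.15%) and 0 for PB against PrePB (2.46%). For PrePB against ActB these were Ebi3, with a log2 difference of -0.76 (95% interval -1.28 to -0.25), and Tigit, with -0.97 (-1.75 to -0.19). For PB against ActB it was Ebi3, with -0.92 (-1.43 to -0.40, adjusted p = 0.813). The ko effect on Lag3 in PB exceeded that in PrePB by 0.59, and the interval reached 0 at its lower end (upper end 1.18).

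The partners of the receptors showed both directions. Of 7 tested genes for receptors and ligands around LAG3 and TIGIT, 2 rose and 1 fell in ko PrePB against ko ActB, and of 6 around PD-1 and CTLA-4, 2 rose and 2 fell, where 27.1% of all genes rose and 27% fell. Pvr, the main TIGIT ligand, rose by 1.21 on the log2 scale (adjusted p = 1.42e-06 by limma), to 11.7 and 11.9 FPKM in ko PrePB, against 4.26 and 4.83 in ko ActB. The nectin gene Pvrl2 rose by 0.87, and the galectin gene Lgals3, whose product can bind LAG3, fell by 3.47. Cd226, the activating receptor that shares PVR with TIGIT, was at or below 0.0439 FPKM in every library, and the LAG3 ligand gene Fgl1 was listed at 0 in all. H2-Ab1, an MHC class II chain, fell by 0.53 in ko PB (adjusted p = 0.0497) and by 0.86 in wt PB (adjusted p = 0.00756) against PrePB. In wt cells its change was -0.86 without wt PrePB replicate 2, -0.79 without wt PB replicate 1 and -0.79 without wt replicate 1 in all 3 populations, and the call was lost in each case. In ko cells leaving out any 1 of the 4 libraries compared ended the call, with changes of -0.42 to -0.64, as did a fit without the filter, with a pseudocount of 0.1, on the compared groups alone, with the pattern term or without wt replicate 1 (-0.53 to -0.60).

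Cd28, the costimulatory receptor next to Ctla4 on chromosome 1, rose in ko PrePB as Ctla4 did, while the genes of its ligands fell. It measured 10.2 and 13.4 FPKM in ko PrePB, against 0.867 and 0.742 in ko ActB, a log2 rise of 2.81 (adjusted p = 8.68e-07 by limma), and rose again by 1.29 in ko PB and by 0.98 in wt PB against PrePB. The wt call was lost without wt PrePB replicate 1 (0.79), wt PB replicate 2 (0.83) or wt replicate 1 in all 3 populations (0.93). Its mean was 30.5 FPKM in ko PB and 28.8 in wt PB. Icos, on the other side of Ctla4, was at or near 0 throughout. Pdcd1, which encodes PD-1, rose by 1.59 in ko PrePB against ko ActB and by 0.81 in ko PB against ko PrePB, a call lost without ko PrePB replicate 1 (0.72), ko PB replicate 1 (0.80) or ko PB replicate 2 (0.81). The CD28 and CTLA-4 ligands Cd80 and Cd86 fell by 1.36 and 1.73 in ko PrePB.

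**Figure D4:**
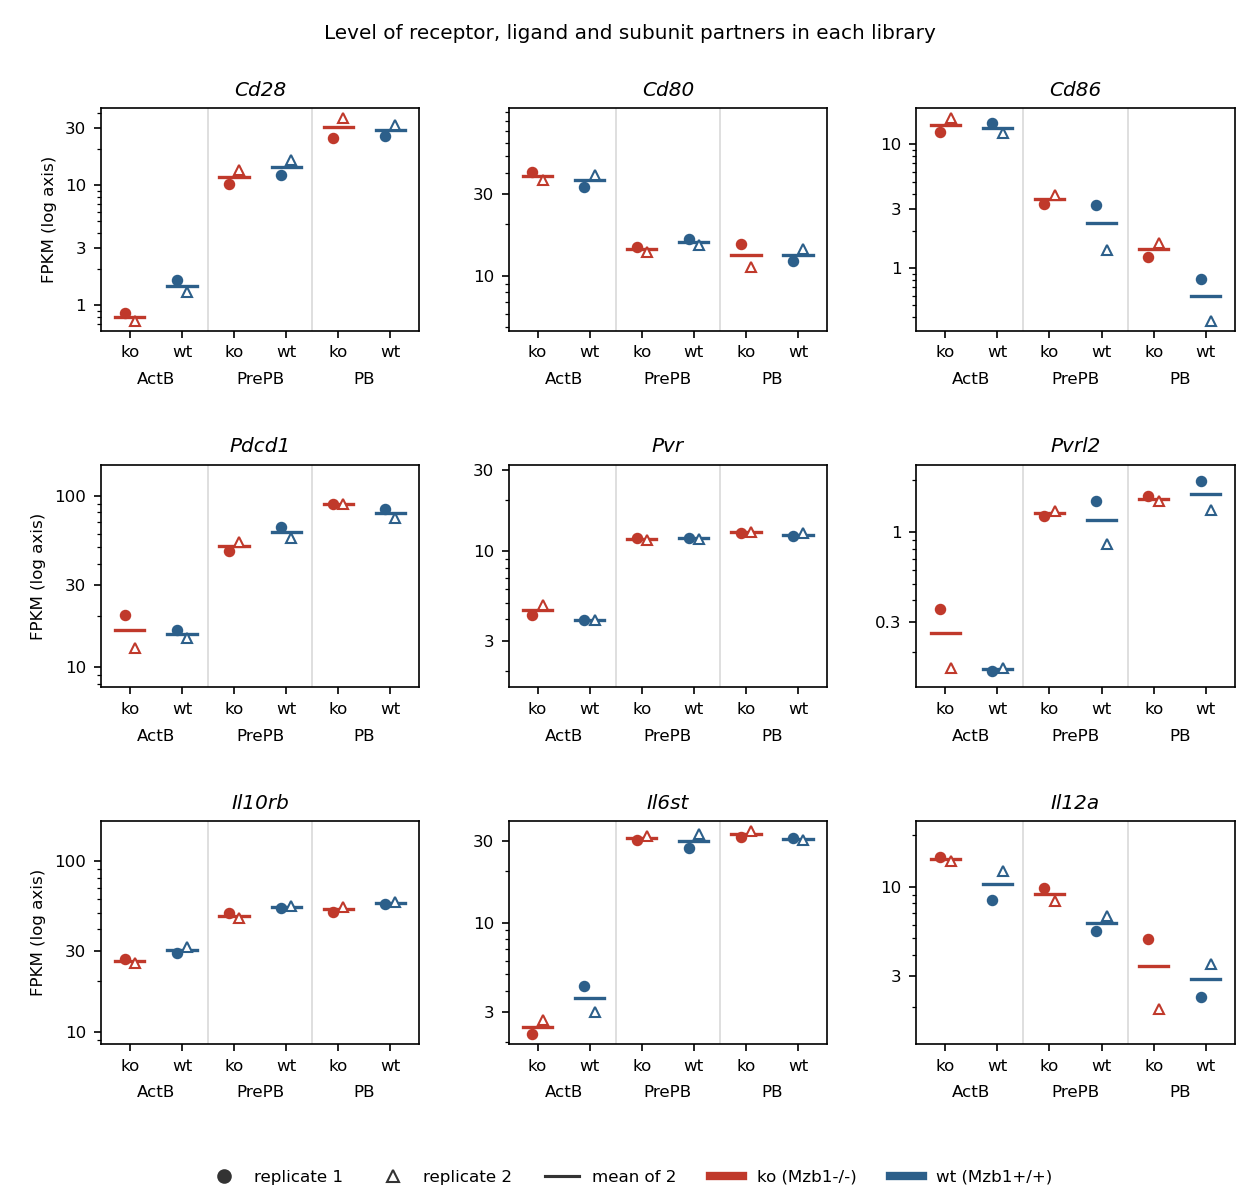
Level of 9 receptor, ligand and subunit partners in each library, in FPKM on log axes, by population and genotype (ko left of wt). Circles are replicate 1, triangles replicate 2 and bars the mean of 2. Cd28, Pdcd1, Pvr, Pvrl2, Il10rb and Il6st are lowest in ActB, and Cd80, Cd86 and Il12a are highest there, by the mean within each genotype.

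The partner of EBI3 in IL-35 did not share its course. Il12a averaged 3.45 FPKM in ko PB and 2.90 in wt PB, against 14.6 in ko ActB and 10.4 in wt ActB, and fell by 1.26 on the log2 scale in ko PB against ko PrePB (adjusted p = 0.0224 by limma). That call was lost without ko PB replicate 2 (-0.75), ko PrePB replicate 1 (-1.15) or ko PrePB replicate 2 (-1.38), and without the filter, on the compared groups alone (-1.26 in both) or with the pattern term (-1.18). Il27, whose product pairs with EBI3 in IL-27, was at or below 0.374 FPKM in every library. Il6st, the gp130 chain of several cytokine receptors, rose by 3.22 in ko PrePB against ko ActB, and Il27ra fell by 2.11. In the list of 12 tested genes for IL-10 and IL-35 receptors and signalling, 4 rose and 7 fell there, against 27.1% and 27% of all genes, with a median log2 change of -0.54. None of the 12 was called for ko against wt in any population.

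Of 10 tested genes known to regulate Il10, 4 rose and 5 fell in ko PrePB against ko ActB, where limma called 54.2% of all genes. Prdm1, which marks the sort, rose by 3.67 and the plasma cell factor Irf4 by 1.73. Zfp36, whose product destabilises cytokine mRNAs, rose by 2.90, and the AP-1 partner Batf fell by 1.53. In PB against PrePB, 1 of the 10 rose in ko cells (Ahr, by 0.69), where 10.8% of all genes were called. In wt cells limma called 0 of the 10 and 8.73% of all genes, and Ahr had a log2 change of 0.46 (adjusted p = 0.0806). The ko call of Ahr was lost without ko PrePB replicate 1 (0.58) or ko PB replicate 2 (0.59), and with the compared groups alone (0.69, adjusted p = 0.0623). With the replicate number as a block, limma also called Zfp36 in ko PB (0.45, adjusted p = 0.0417) and Batf in wt PB (-0.39, adjusted p = 0.0447), and Batf was called after rescaling too (-0.55, adjusted p = 0.0460). Among 18 other checkpoint and regulatory B cell genes tested, 7 rose and 6 fell in ko PrePB (54.2% of all genes called), among them Tgfb1 (-1.10), Il6 (-2.66), Tgfb3 (1.20) and Cd69 (1.45). Cd200r1, the one tested CD200 receptor gene, was at 1.31 FPKM or less in every library. Its lowest adjusted p over the comparisons in the main limma fit was 0.0552, in ko PrePB against ko ActB. It was called there without the filter (log2 change 0.38, adjusted p = 0.0265) and without ko ActB replicate 1 (0.54).

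Since Lag3, Tigit and Ctla4 are best known from T and NK cells, markers of these cells were read in the same libraries. The 12 T cell markers summed to 169 to 193 FPKM in ko ActB and 164 to 202 in wt ActB, to 55.1 to 56.3 in ko PrePB and 50.8 to 67.4 in wt PrePB, and to 49.9 to 50.3 in ko PB and 39.9 to 47.4 in wt PB. Most of this was Cd2 and Lck. Of the 12, Cd3e, Cd8a, Cd4 and Foxp3 were at or below 0.241 FPKM in every library, whereas Cd3g reached 8.17 FPKM in PB. Of the 12 markers, 2 were higher in every PB than in every ActB library and 3 were lower (Lck, Cd2 and Thy1). Those higher were Cd3g, at 3.19 to 8.17 FPKM in PB against 0.207 to 0.808 in ActB, and Cd3d, at 0.259 to 1.02 FPKM in PB against 0.0516 to 0.0756 in ActB. Cd8b1 averaged 0.264 FPKM in ko PB and 0.511 in wt PB, against 0.0914 in ko ActB and 0.0337 in wt ActB, with libraries that overlapped. The part of these markers in the levels of the 3 receptor genes was not tested.

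The 8 NK cell markers summed to 6.85 to 7.56 FPKM in ko PB and 5.52 to 6.99 in wt PB, against 0.305 to 0.789 in ko ActB and 0.334 to 0.890 in wt ActB. Most of the PB sum was Eomes, at 4.40 to 6.01 FPKM, and the receptor gene Ncr1 was listed at 0 in every library. In PrePB the NK sum was 3.10 to 3.33 FPKM in ko and 1.99 to 3.06 in wt. The sum was thus higher at each step in both genotypes. Between PrePB and PB, Lag3 changed by -0.05 on the log2 scale in wt and 0.54 in ko cells, and Tigit by 1.42 and 1.82. The 3 tested NK markers (Eomes, Nkg7 and Prf1) were called higher in ko PrePB against ko ActB, where 27.1% of all genes rose. The calls of Nkg7 and Prf1 were lost with quantile normalization (0.69 and 0.65). That of Nkg7 was also lost with a pseudocount of 0.1 (2.48). It was lost without ko ActB replicate 2 (0.63), ko PrePB replicate 1 (0.83) or ko PrePB replicate 2 (0.87). That of Prf1 was lost without wt replicate 1 in all 3 populations (0.84), ko ActB replicate 1 (0.85) or ko ActB replicate 2 (0.84). The part of the NK markers in the values of Lag3 and Tigit was not tested. Plasmacytoid dendritic cell markers summed to at most 31.7 FPKM, dendritic cell markers to at most 24.1 and macrophage and granulocyte markers to at most 39.6 in any library. Of these 20 markers, 3 were higher in every PB than in every ActB library: Pacsin1, at 11.4 to 15.5 FPKM in PB against 1.71 to 2.41 in ActB, Ccr9, at 0.840 to 1.56 FPKM in PB against 0.0901 to 0.319 in ActB, and Cd68, at 27.1 to 35.5 FPKM in PB against 8.27 to 10.2 in ActB. Another 5 were lower in every PB library (Siglech, Cox6a2, Flt3, Itgax and Adgre1), and 4 were listed at 0 in every library (Klk1, Clec9a, S100a9 and Elane). Their part in the values of Lag3 and Tigit was not tested. The 7 B cell markers summed to 2735 to 2812 FPKM in ko PB and 2261 to 2435 in wt PB. In ActB the sum was 3642 to 4076 FPKM in ko and 3125 to 3890 in wt. Between genotypes in PB, limma called 1 of the 7 (Pax5), where it called 0.407% of all genes. Pax5 stood at 7.24 and 5.92 FPKM in ko PB, against 2.02 and 2.76 in wt PB. The call was lost on the compared groups alone (1.17), with the pattern term (1.04) or without wt replicate 1 (1.01). The 7 plasma cell markers summed to 19066 to 22254 FPKM in ko PB and 22100 to 25870 in wt PB, with 0 called.

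Over the 12 libraries, which share populations and genotypes, log2 levels of Lag3 correlated with those of Ctla4 (Pearson r = 0.983), Il10 (0.969) and Tigit (0.955), and those of Tigit with Il10ra at -0.997 and with Ebi3 at 0.827. Cd200 stayed between -0.154 and 0.104 with every other member. The tested genes most like Lag3 were Trp53i11, 2410004P03Rik, Derl3, Sft2d2 and Dnajc10 (r = 0.995 for each), and those most like Tigit were Ergic1, Alcam, Cers4, Abcb1b and Oosp1 (0.995 to 0.996). For Ebi3 they were Elp5, Rchy1 and Rps24 (0.970 to 0.980), and for Il10 Tbc1d16, Mcph1 and Utp3 (0.982 to 0.983). Cd274 and Cd200 had no gene above 0.864 and 0.885. These correlations are descriptions over points that fall into populations, and carry no test.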

How the data were processed

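RNA of 12 libraries, 6 groups of 2, was measured by RNA-seq. Per the labels' protocols, total RNA was extracted with RNeasy columns, enriched with oligo-dT beads and made into TruSeq stranded mRNA libraries. The deposited values are FPKM, with 1 file per library. Per the submitters' processing notes, the authors worked on the mm9 build with Cuffnorm 2.2.1, Cuffdiff (no version given), Cufflinks 2.2.1, TopHat2 2.0.14 and bcl2fastq, versions 2.17.1.14 and 0.3.1. The annotation, the library scaling and any filters are not given in the sources used here. The files hold no counts, so depth is unknown and no count test or counting interval was used. A value of 0 can be a failed estimate and is written as listed at 0.

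Values were analysed as log2(FPKM + 1), which understates changes of low genes. The 11069 genes that reached 1 FPKM in 2 or more libraries entered limma 3.58.1 (limma-trend, R 4.3.3), with 1 mean per group, 6 residual and 4.49 prior degrees of freedom. Tests were two-sided, with Benjamini-Hochberg adjustment over all genes tested and a threshold of 0.05. The model was run on simulated data for ko against wt PB only, with independent noise and no effect of pattern, sex or replicate. That run therefore says nothing about how such effects act on the calls. Folds are ratios of FPKM + 1. Rose, fell and called refer to this test. The genes, the lists and the comparisons were chosen with earlier results of these data known, and 3 comparisons with activated B cells that led to the choice were only described.

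All 9 members were named in each comparison, with their receptor, ligand or subunit partners and their neighbours on the chromosome. Up to 4 called genes by lowest p were named from 13 lists. These hold 133 symbols, 126 of them listed in the files and 80 tested. Also named were the 5 genes most correlated with Lag3 and with Tigit, and the 3 most correlated with other members. The fragment pattern is the share of genes below 0.5 FPKM at the most frequent ratio of 2 libraries, with a log2 tolerance of 0.002. Alternatives tried were all genes unfiltered, a minimum of 5 FPKM, quantile normalization, a smaller pseudocount (0.1), rescaling to equal totals without small RNA genes, the compared groups alone, a replicate block, a term for the pattern, and leaving out libraries. Figures were drawn with matplotlib 3.10.9 (Python 3.11.15).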

Additional observations from a re-analysis of the deposited data

How the results depend on the processing

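The 5 calls in ko PrePB against ko ActB, and the absence of a call in ko against wt and in the interactions, held under every setting run. Of the tested log2 changes of members (for interactions, those given above) under other settings, 633 kept their direction and their side of the threshold, 11 lost a call, 2 gained one and 46 changed sign, each of them in a value not called under either setting. Of the described values, 28 moved by more than the spread between replicates and 11, of Cd274 and Cd200, changed sign. The count of members called in wt PB against wt PrePB, 3 in all libraries, was 0 without wt replicate 1 in all 3 populations and 1 to 3 when 1 library was left out. In ko cells it was 2 to 3. The described count of 6 in ko PB against ko ActB was 5 with quantile normalization or rescaling, since Ebi3 lies at the 2-fold limit. With the compared groups alone, Il10ra in wt (-1.12, adjusted p = 0.0620) and Ebi3 in ko PB against PrePB (0.97, 0.0582) lost their calls at the same log2 change. Without a filter Pdcd1lg2 was called in ko PB against ko PrePB (log2 change -0.27, adjusted p = 0.0401), at levels below 0.4 FPKM. The term for the pattern called Lag3 there (0.73, adjusted p = 0.0287). For these changes the cause was not tested.

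For ko against wt, Lag3 in PrePB (-0.01) was 0.092 with quantile normalization, 0.083 after rescaling, 0.19 with the pattern term, 0.086 without wt replicate 1 in all 3 populations and -0.22 to 0.21 with 1 library left out. Tigit in ActB (-0.11) was 0.012 without wt replicate 1 in all 3 populations and -0.48 to 0.25 with 1 library left out. Cd274 in PB (-0.018) was 0.083 after rescaling, 0.070 without wt replicate 1 in all 3 populations and -0.27 to 0.23 with 1 library left out, and in ActB -0.30 to 0.18. Ctla4 in PB (-0.19) was 0.066 with the pattern term, and in PrePB -0.29 to 0.000123 with 1 library left out. Il10 in PB (-0.22) was 0.16 without wt replicate 1 in all 3 populations and -0.66 to 0.22 with 1 library left out, and in ActB -0.19 to 0.026. For PB against PrePB, Cd274 in wt (0.04) was -0.11 after rescaling, -0.10 without wt replicate 1 in all 3 populations and -0.045 to 0.13 with 1 library left out, and in ko -0.41 to 0.090. Il10 in ko (0.07) was -0.011 with quantile normalization, -0.079 after rescaling and -0.37 to 0.51 with 1 library left out, and in wt -0.58 to 0.18. Cd200 in wt (-0.26) was 0.16 without wt replicate 1 in all 3 populations and -1.05 to 0.53 with 1 library left out, and in ko -0.25 to 0.81. Lag3 in wt was -0.20 to 0.10. For ko PrePB against ko ActB, Ebi3 (0.04) was -0.11 and Cd200 (0.02) -0.12 after rescaling, and with 1 library left out the ranges were -0.13 to 0.21 for Ebi3, -0.32 to 0.36 for Cd200 and -0.31 to 0.18 for Cd274. The cause was not tested.

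Counts of all genes moved more. For wt PB against wt PrePB the 966 became 71 without wt replicate 1 in all 3 populations, 532 with the compared groups alone, 1457 after rescaling and 251 to 418 with 1 library left out. For ko PB against ko PrePB the 1196 became 489 with the compared groups alone and 375 to 811 with 1 library left out. For ko against wt PB the 45 became 4 with the term for the pattern, 8 with the compared groups alone, 10 without wt replicate 1 in all 3 populations, 27 without a filter, 72 after rescaling and 10 to 11 without either wt PB library or ko PB replicate 1. For ko against wt PrePB the 13 became 7 to 24. Rescaling moved the median log2 change of all genes to -0.38 in wt PB and -0.28 in ko PB against ActB, and to 0.12 in ko against wt PB.

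The replicate numbers do not establish pairing. Replicate differences correlated across genes at 0.05 to 0.32 between populations of a genotype, at -0.11 to -0.05 between genotypes in a population, and at -0.05 to 0.07 between other groups. With the replicate number as a replicate block, 3 members were called in wt PB against wt PrePB and 4 in ko PB against ko PrePB, where Lag3 was added (adjusted p = 0.0108), and the count of all genes in wt PB against wt PrePB was 1558. The block changed no other call of a member. With 2 libraries a group and unknown depth, differences the size of those in Il10 or Cd200 between genotypes could not be resolved.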
